A study of Mus musculus with 13 samples.

Results

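Pdgfrb, Rgs5, Acta2, Tagln and Myh11, which mark the mural cells of vessels, and Dcn, Lum, Igf2, Slc6a13 and Ogn, which mark fibroblasts of the meninges, were followed in RNA of the mouse olfactory bulb. These 10 genes were taken by symbol from a table of 34745 genes, each matched 1 row, and all 10 were among the 17467 genes that passed the filter on low counts. The samples were olfactory bulbs of wild type C57BL/6 mice aged 7 to 8 weeks, sequenced as 13 libraries. In the 1st set, 4 control libraries of mice labelled as having no treatment were set beside 3 libraries of mice given PM2.5 (fine airborne particles) at 3 mg/kg. In the 2nd set, 3 control libraries were set beside 3 libraries of mice given PM2.5 at 10 mg/kg. Both doses carry the words "/3 day" in the labels. The sources used here do not explain what 1st and 2nd stand for, or by what route and in what vehicle the particles were given. Each dose was given in 1 set only and is set against that set's own controls. The labels do not say whether the replicates of a group are separate animals or pools, and the p-values cover no more than the spread among these libraries.

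The series is described as male, yet the sets differed in sex-linked RNA: Xist, the RNA of the inactive X chromosome, stood at 2243 CPM or above in each library of the 1st set and at 0.555 CPM or below in each library of the 2nd. The sum of 4 Y-linked genes was at most 0.209 CPM in the 1st set and at least 176 CPM in the 2nd. CPM is the read count relative to the library total, with totals scaled between libraries by the TMM method. Library totals ran from 13032834 to 14665696 counts in the 1st set and from 15387870 to 26989267 in the 2nd. A difference between the sets therefore cannot be told apart from sex, depth or anything else in which the sets differ. Markers of the labelled tissue were present in every library: Tbx21 and Eomes, transcription factors of mitral and tufted cells, stood at 24.4 and 76.5 CPM or above, and Gad1 of bulb interneurons at 1667 CPM or above. In bulk tissue, fewer cells of a type and less RNA per cell cannot be told apart.

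Mural cells wrap the outside of brain vessels. Pericytes lie on capillaries, inside the basement membrane they share with the endothelium, and are held there by signalling from endothelial PDGF to the receptor PDGFRB, while smooth muscle cells ring arterioles and contract through actin and myosin. Meningeal fibroblasts build the collagen-rich coverings of the brain surface and of its larger vessels, where small leucine-rich proteoglycans such as decorin, lumican and osteoglycin bind collagen fibrils. Contractile genes are switched on by serum response factor (SRF) and its cofactor myocardin, which bind a short promoter sequence called the CArG box.

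The promoters of Acta2 and Igf2 are printed because they were the members with a RefSeq promoter that held a CArG-type sequence. For Igf2 this was the second listed start only, and starts 1, 3 and 4 held none. Promoters were on hand for 5 of the 10 members (Rgs5, Acta2, Igf2, Slc6a13 and Ogn), 10 promoters in all with the alternative starts, and Pdgfrb, Tagln, Myh11, Dcn and Lum had no entry. The motif searched was CC, then 6 bases with at most 1 G or C among them, then GG, which reads the same on both strands. It was searched in a window from 250 bases before to 50 bases after the start, and of 32851 mouse promoters of that length 9.98% held it (1.63% with no G or C inside). The 250 bases before the start are shown 5′ to 3′ on the gene's strand (RefSeq, build GRCm38.p6), with the motif in capitals. The Acta2 promoter lies at chr19:34255374-34255623 on the minus strand, and that of the second listed start of Igf2 at chr7:142661272-142661521 on the minus strand.
Acta2: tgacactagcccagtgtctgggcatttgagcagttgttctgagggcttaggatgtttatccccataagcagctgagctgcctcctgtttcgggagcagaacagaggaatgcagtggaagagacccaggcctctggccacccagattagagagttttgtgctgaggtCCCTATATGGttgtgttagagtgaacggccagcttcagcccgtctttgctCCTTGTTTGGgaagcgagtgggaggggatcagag
Igf2: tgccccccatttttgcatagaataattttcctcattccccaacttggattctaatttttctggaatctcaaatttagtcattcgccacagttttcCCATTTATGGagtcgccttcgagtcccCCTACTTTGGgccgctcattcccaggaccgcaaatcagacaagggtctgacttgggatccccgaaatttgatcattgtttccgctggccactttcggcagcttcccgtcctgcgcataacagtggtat
In Acta2 the motif CCCTATATGG ran from 84 to 75 bases before the start and CCTTGTTTGG from 34 to 25 bases before it. In Igf2 the motif CCATTTATGG, without G or C inside, ran from 155 to 146 bases before the start and CCTACTTTGG from 128 to 119 bases before it. A match of letters is a description of the window and shows no binding.

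On the per-length scale (the authors' FPKM, scaled for gene length and library total), Rgs5 was the most abundant member in all 4 groups and Dcn the next. In the controls of the 1st set the mean level of Rgs5 was 22.7 ± 1.69 FPKM (SD, n = 4), that of Dcn 12.99 ± 1.85 FPKM, that of Slc6a13 8.15 ± 0.526 FPKM and that of Pdgfrb 6.495 ± 0.427 FPKM. The ranges of these 4 genes did not overlap between neighbours in that order. Acta2 (5.92 ± 0.793 FPKM), Ogn (5.47 ± 0.717 FPKM), Tagln (3.70 ± 0.706 FPKM) and Igf2 (3.15 ± 1.22 FPKM) followed, each overlapping its neighbours in the order. Myh11 (1.76 ± 0.20 FPKM) and Lum (1.46 ± 0.143 FPKM) were lowest. In the controls of the 2nd set Rgs5 (16.4 ± 5.15 FPKM, SD, n = 3) and Dcn (7.42 ± 3.26 FPKM) were the highest, and Lum (0.611 ± 0.258 FPKM) and Myh11 (0.495 ± 0.339 FPKM) the lowest.

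**Figure D1:**
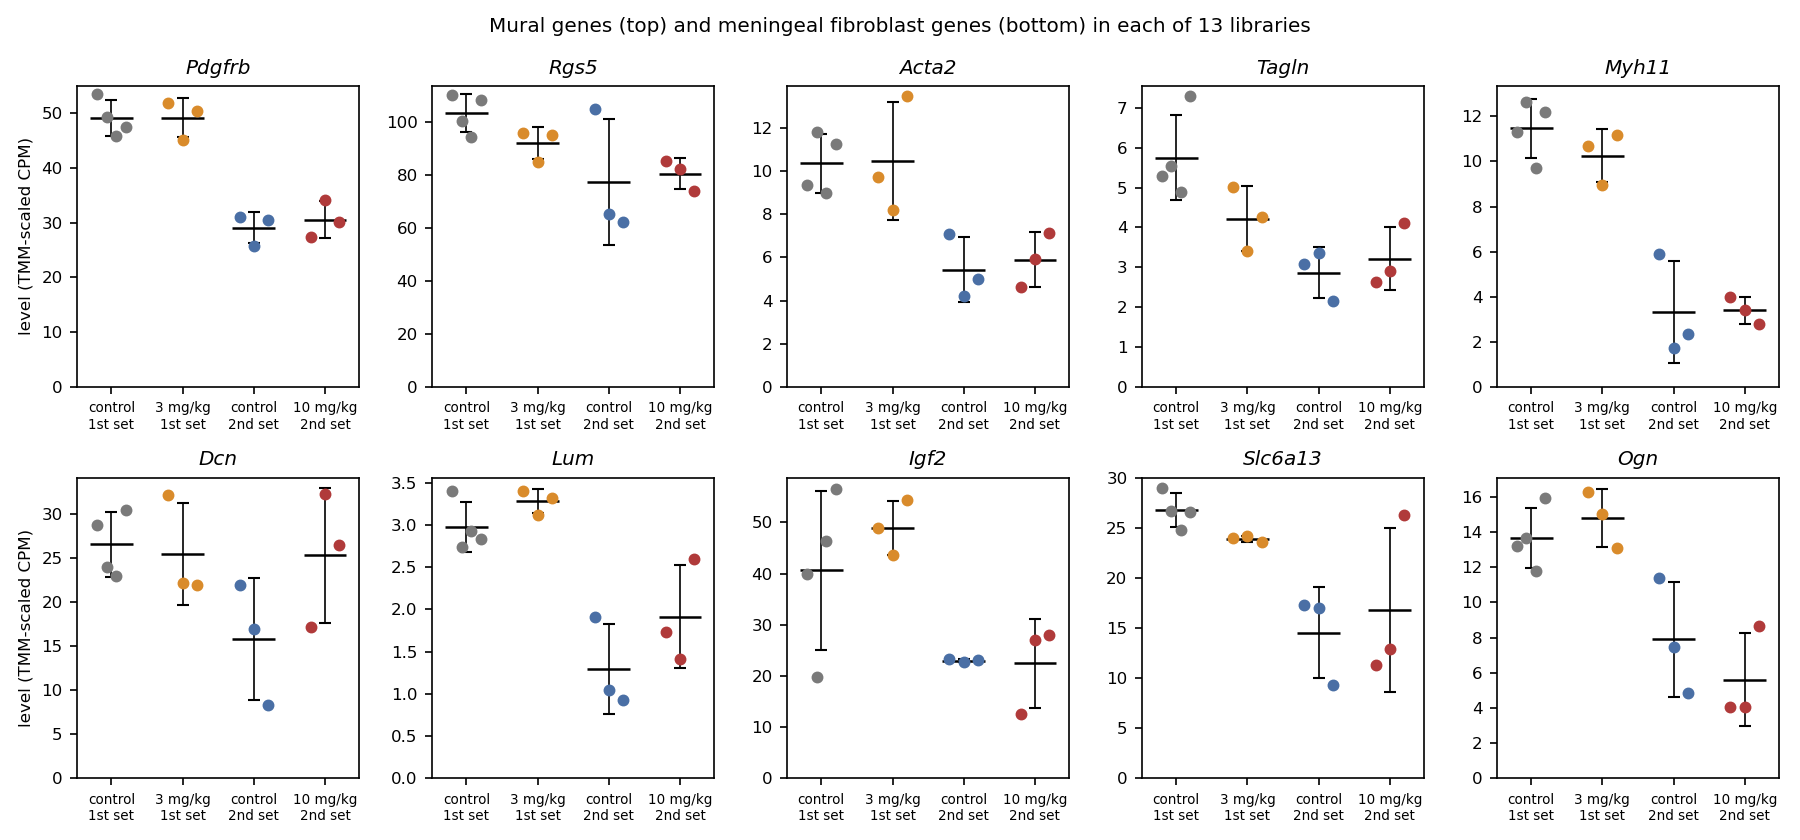
Level of each gene in TMM-scaled CPM (vertical axis, from 0) in every library of the 4 groups (horizontal axis); points are libraries, long bars group means and error bars ± SD (n = 4, 3, 3 and 3). The 2nd set sits below the 1st for Pdgfrb, Acta2, Myh11, Lum and Ogn with no overlap of libraries, while exposed and control libraries of the same set overlap in every panel except that of Slc6a13 at the low dose.

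For each of the 10 genes the log2 difference between the controls of the 2 sets was larger in size than that at either dose. Among the controls, 6 of the 10 genes were lower in the 2nd set than in the 1st (Pdgfrb, Acta2, Tagln, Myh11, Lum and Slc6a13), by edgeR's quasi-likelihood test at an adjusted p below 0.05. Over all 17467 genes, 8.74% were called lower in this comparison and 10.5% higher (19.3% in either direction). At an unadjusted p below 0.05 there were 10 members and 35.7% of all genes. All 10 members had a negative log2 fold change, with a median of -0.85, against a median of -0.02 over all genes tested and 48.0% of them positive. The controls of the sets did not overlap for 8 of the 10 genes, against 14.6% of all genes that lay apart in that direction. The members were chosen with earlier results of these data known, so these counts beside the shares are a description.

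Pdgfrb, the PDGF receptor that pericytes depend on (ENSMUSG00000024620, mm10 chromosome 18, 61045150 to 61085061), stood at 53.5, 49.4, 45.9 and 47.5 CPM in control replicates 1 to 4 of the 1st set and at 31.0, 25.8 and 30.4 CPM in control replicates 1 to 3 of the 2nd. Each control of the 2nd set was below each of the 1st. The log2 fold change was -0.76 (SE 0.10, adjusted p = 0.000785 by edgeR), the most precise of the 10. The exposed libraries kept to the level of their set, at 51.9, 45.1 and 50.4 CPM at 3 mg/kg and at 27.3, 34.04 and 30.0 CPM at 10 mg/kg. Over all libraries Pdgfrb thus spanned 45.1 to 53.5 CPM in the 1st set and 25.8 to 34.04 CPM in the 2nd.

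Rgs5, a regulator of G protein signalling that marks pericytes (ENSMUSG00000026678, mm10 chromosome 1, 169655501 to 169695813), stood at 110, 101, 94.4 and 108 CPM in the controls of the 1st set and at 105, 65.3 and 62.3 CPM in those of the 2nd. Control replicate 1 of the 2nd set was within the range of the 1st set and the other controls of the 2nd were below it. Rgs5 was not called (log2 fold change -0.42, SE 0.15, adjusted p = 0.0589 by edgeR). Without control replicate 1 of the 2nd set the log2 fold change was -0.72 (adjusted p = 0.000677). With all libraries kept, Rgs5 lay close to the threshold and passed by DESeq2 (adjusted p = 0.0472) and by limma on log2(FPKM + 1) (adjusted p = 0.0364).

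Myh11, the heavy chain of smooth muscle myosin (ENSMUSG00000018830, mm10 chromosome 16, 14194527 to 14291408), showed the largest difference of the 10. It stood at 11.3, 12.7, 9.70 and 12.2 CPM in the controls of the 1st set and at 5.92, 1.74 and 2.34 CPM in those of the 2nd, with no overlap. The log2 fold change was -1.82 (SE 0.32, adjusted p = 0.00285 by edgeR), a level 3.53-fold lower. As with Rgs5, control replicate 1 was the highest of the 2nd set, and leaving it out gave a log2 fold change of -2.53.

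Acta2, the actin of smooth muscle (ENSMUSG00000035783, mm10 chromosome 19, 34241090 to 34255336), stood at 9.36, 11.8, 9.004 and 11.3 CPM in the controls of the 1st set and at 7.10, 4.21 and 4.99 CPM in those of the 2nd. The groups did not overlap, and the log2 fold change was -0.94 (SE 0.23, adjusted p = 0.0122 by edgeR). The call was lost without control replicate 2 of the 2nd set (-0.77, adjusted p = 0.0604). Tagln, the actin-binding protein transgelin (ENSMUSG00000032085, mm10 chromosome 9, 45929628 to 45936058), stood at 5.29, 5.55, 4.89 and 7.29 CPM in the controls of the 1st set and at 3.09, 3.36 and 2.16 CPM in those of the 2nd. Here too the groups lay apart (log2 fold change -0.99, SE 0.24, adjusted p = 0.0116 by edgeR). Tagln overlaps Pcsk7 on the opposite strand, and since the sources used here do not give the strand setting of the counting, reads of the pair may have been counted together.

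Of the fibroblast genes, Lum, which encodes the proteoglycan lumican (ENSMUSG00000036446, mm10 chromosome 10, 97565501 to 97572703), stood at 3.40, 2.74, 2.93 and 2.83 CPM in the controls of the 1st set and at 1.91, 1.04 and 0.925 CPM in those of the 2nd. No library overlapped, and the log2 fold change was -1.22 (SE 0.28, adjusted p = 0.0108 by edgeR). The counts behind these values were 15 to 45 per library, the lowest of the 10 genes among the controls. Without control replicate 2 of the 2nd set the call was lost (-1.07, adjusted p = 0.0559).

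Slc6a13, the transporter GAT2 that carries GABA and taurine in the meninges (ENSMUSG00000030108, mm10 chromosome 6, 121300227 to 121337733), stood at 29.0, 26.7, 24.8 and 26.6 CPM in the controls of the 1st set and at 17.3, 17.0 and 9.31 CPM in those of the 2nd. The groups lay apart (log2 fold change -0.88, SE 0.27, adjusted p = 0.0363 by edgeR). This call was the least stable: without any 1 of the 4 controls of the 1st set, exposed replicates 2 or 3 of the 1st set, or control replicates 2 or 3 of the 2nd set it was lost, with adjusted p-values from 0.0533 to 0.0879. With no filter on low counts it was lost as well (adjusted p = 0.0681).

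Dcn, Ogn and Igf2 were not called. Dcn, which encodes decorin (ENSMUSG00000019929, mm10 chromosome 10, 97479500 to 97518162), stood at 28.8, 24.0, 23.0 and 30.5 CPM in the controls of the 1st set and at 22.02, 17.0 and 8.32 CPM in those of the 2nd (log2 fold change -0.75, SE 0.29, adjusted p = 0.0894 by edgeR). Ogn, which encodes osteoglycin (ENSMUSG00000021390, mm10 chromosome 13, 49608071 to 49624500), stood at 13.2, 13.6, 11.8 and 15.9 CPM and at 11.4, 7.45 and 4.87 CPM in the same groups (-0.79, SE 0.29, adjusted p = 0.067). Both genes lay apart between the controls, but the 3 libraries of the 2nd set were widely spread. Without control replicate 1 of the 2nd set both passed (Dcn -1.08, adjusted p = 0.0259, and Ogn -1.16, adjusted p = 0.0129), and Ogn passed also without exposed replicate 3 of the 2nd set, which bears on the shared estimate of spread (adjusted p = 0.0202). With all libraries kept, both passed by DESeq2 (Dcn adjusted p = 0.0352, Ogn 0.0318) and by limma (Dcn 0.0474, Ogn 0.035). Ogn overlaps Cenpp on the opposite strand.

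Igf2, an insulin-like growth factor of the meninges (ENSMUSG00000048583, mm10 chromosome 7, 142650766 to 142666816), stood at 39.9, 19.8, 46.3 and 56.6 CPM in the controls of the 1st set and at 23.3, 22.7 and 23.1 CPM in those of the 2nd. Control replicate 2 of the 1st set was the lowest of these 7 libraries, so the groups overlapped. The log2 fold change was -0.82 (SE 0.33, adjusted p = 0.10 by edgeR), and -1.05 without that library (adjusted p = 0.02). By DESeq2 with all libraries the adjusted p was 0.0267, and by edgeR it was 0.0483 when exposed replicate 1 of the 2nd set was left out. Igf2 overlaps Igf2os on the opposite strand and Gm49394 on its own strand, and the length implied by its count and FPKM was 13154 bases, so its FPKM is spread over more sequence than that of the other members.

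The count of 6 members moved with single libraries and with the test. With 1 library left out it ran from 3 to 9. It was 3 without control replicate 2 of the 2nd set, the deepest library, when 1340 genes passed in all instead of 3364, and 9 when control replicate 1 of that set was left out. With all libraries kept, the DESeq2 Wald test called all 10 members, limma on log2(FPKM + 1) called 9 and edgeR without a filter on low counts called 5. The direction was the same for all 10 members under all 18 alternatives, and Pdgfrb, Tagln and Myh11 were called in all 18. These alternatives reuse the same control libraries, and those without an exposed library keep all of the controls. For the 8 members whose controls lay apart, leaving out 1 library could hardly turn the sign. The shared direction is therefore a description and no separate support. Over all 7 libraries of the 1st set and all 6 of the 2nd, exposed ones included, the sets did not overlap for 5 of the 10 members (Pdgfrb, Acta2, Myh11, Lum and Ogn), against 6.52% of genes that lay apart in that direction and 8.35% in the other. These levels share the control libraries with the test above and are given as a description.

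**Figure D2:**
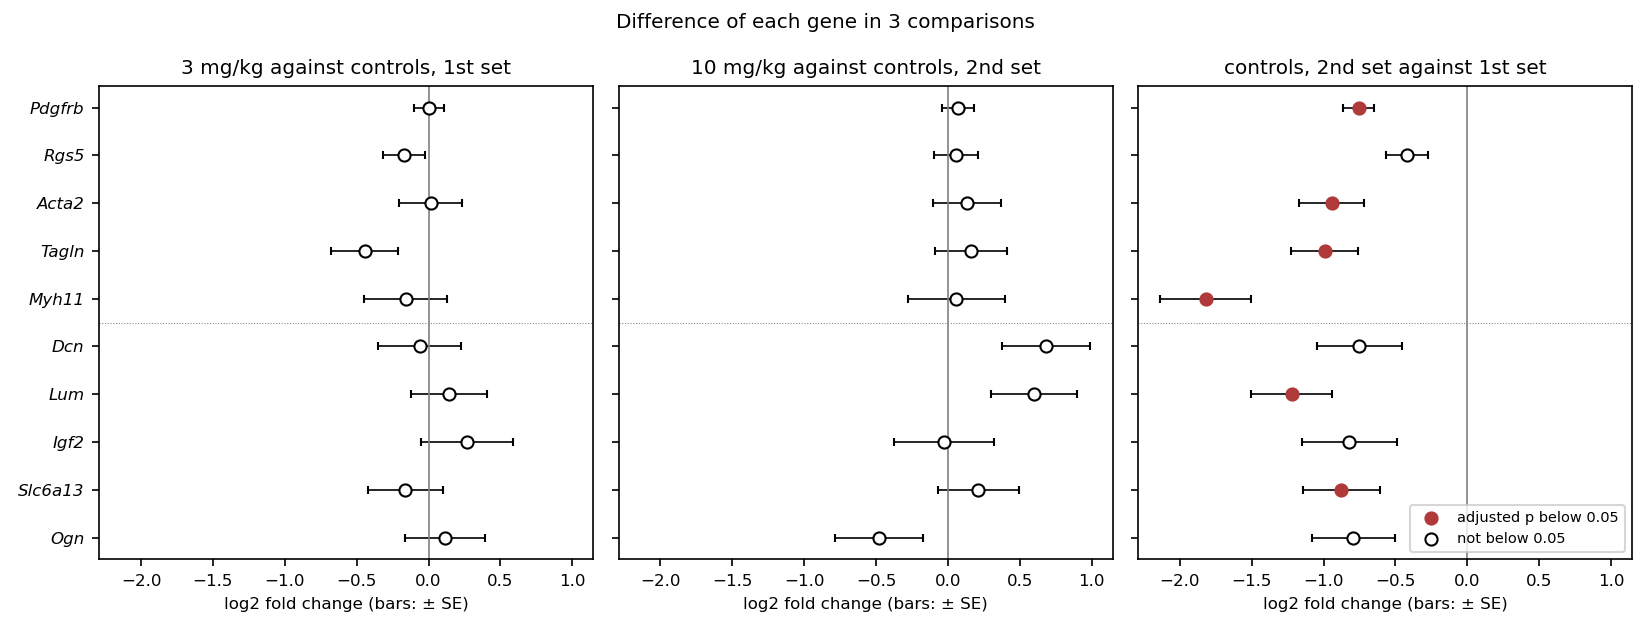
Log2 fold change of each gene (horizontal axis, bars ± SE) in the low dose, high dose and control comparisons; filled points have an adjusted p below 0.05 in edgeR's quasi-likelihood test. All 10 points lie left of 0 in the control comparison, where 6 are filled, and no point is filled at either dose.

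At 3 mg/kg none of the 10 genes passed the test by edgeR, as none of the 17467 genes did (0%). At an unadjusted p below 0.05 there were 0 members and 2.46% of all genes. Log2 fold changes ran from -0.45 to 0.27, with 5 positive and 5 negative and a median of -0.03 (0.00 over all genes). Tagln had the lowest value: it stood at 5.01, 3.40 and 4.26 CPM in exposed replicates 1 to 3, against 4.89 to 7.29 CPM in the controls, and exposed replicate 1 was within the range of the controls (log2 fold change -0.45, SE 0.23, adjusted p = 1). Slc6a13 was the only member whose groups did not overlap, at 24.0, 24.2 and 23.6 CPM against 24.8 to 29.0 CPM (-0.16, SE 0.26, adjusted p = 1). Groups lay apart for 6.62% of all genes in this comparison (2.91% lower, 3.71% higher). Igf2 was at 48.9, 43.6 and 54.3 CPM, inside the range of its controls (0.27, SE 0.32, adjusted p = 1). Exposed replicate 1 had the highest Dcn of the 1st set at 32.2 CPM, and replicate 3 the highest Acta2 at 13.5 CPM.

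At 10 mg/kg none of the 10 genes passed either, where 0.641% of all genes did by edgeR. At an unadjusted p below 0.05 there was 1 member, Dcn, against 9.65% of all genes. No member was called by DESeq2 or limma at either dose. The 5 mural genes had log2 fold changes from 0.06 to 0.16. The SEs of Myh11 (0.34), Tagln (0.25) and Acta2 (0.24) were larger than their values, so closeness to the controls was not shown for these genes. Pdgfrb had a value of 0.07 (SE 0.11, adjusted p = 0.932) and Rgs5 one of 0.06 (SE 0.16, adjusted p = 0.969), with 85.2, 82.3 and 73.9 CPM in the exposed libraries. Myh11 stood at 3.97, 3.42 and 2.79 CPM, within the range of its controls.

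The fibroblast genes were more spread at this dose. Dcn stood at 17.2, 32.3 and 26.5 CPM in exposed replicates 1 to 3 against 8.32 to 22.02 CPM in the controls, and replicate 1 overlapped them (log2 fold change 0.68, SE 0.31, adjusted p = 0.508 by edgeR). Lum stood at 1.74, 1.41 and 2.59 CPM (0.60, SE 0.30, adjusted p = 0.559). Ogn had the opposite sign, at 4.07, 4.07 and 8.66 CPM (-0.48, SE 0.31, adjusted p = 0.716). Slc6a13 stood at 11.3, 12.9 and 26.2 CPM and Igf2 at 12.5, 27.1 and 28 CPM (log2 fold changes 0.21 and -0.03, adjusted p = 0.902 and 0.995). Exposed replicate 3 had the highest Lum, Slc6a13, Igf2, Ogn, Tagln and Acta2 of the 2nd set's exposed libraries. For none of the 10 genes did the exposed and control libraries lie apart, against 10.4% of all genes (4.36% lower, 6.08% higher). The difference between the responses to the doses was tested directly and no member passed (log2 differences from -0.60 for Ogn to 0.74 for Dcn, lowest adjusted p 0.933), where 0.00573% of all genes, a single gene, did. At an unadjusted p below 0.05 there were 0 members and 5.98% of all genes.

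Related genes were then read from lists, of which each count is set beside the share of all genes called lower between the controls, 8.74%. The lists were chosen with earlier results of these data known, so the counts are a description and no independent support. Of 26 other markers of meningeal fibroblasts, all tested, 20 were lower in the 2nd set's controls and 1, Spp1, was higher, with a median log2 fold change of -1.14. Col1a1 and Col1a2, the chains of type I collagen, had values of -2.45 (SE 0.62, adjusted p = 0.0238) and -2.06 (SE 0.41, adjusted p = 0.00866). The controls of the 1st set were widely spread for Col1a1, from 31.3 to 131 CPM, against 8.88 to 13.1 CPM in those of the 2nd. Without control replicate 1 of the 1st set its value was -1.77 (adjusted p = 0.0353). The call of Col1a1 was lost without control replicate 2 or 3 of the 2nd set (adjusted p = 0.118 and 0.0507), and that of Col1a2 without replicate 2 (0.0555). The call of Spp1 was lost without any 1 of the 4 controls of the 1st set or control replicate 2 of the 2nd (adjusted p from 0.0516 to 0.175). Cdh1, an adhesion protein of the arachnoid barrier layer, had a value of -2.01 (SE 0.30, adjusted p = 0.0012), and Bmp7, a growth factor of the meninges, one of -1.46 (SE 0.13, adjusted p = 3.63e-05). With 1 library left out, 16 to 21 of these genes were called lower.

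Of 13 other pericyte genes, all tested, 9 were lower and none higher, with a median of -0.65. Anpep, the aminopeptidase CD13, had a value of -2.005 (SE 0.23, adjusted p = 0.000216) and Cspg4, the proteoglycan NG2, one of -0.93 (SE 0.19, adjusted p = 0.00557). Kcnj8, a potassium channel subunit of pericytes, was not called (0.52, SE 0.26, adjusted p = 0.164), at 3.49 ± 0.517 CPM in the controls of the 2nd set (SD, n = 3) against 2.44 ± 0.664 CPM in those of the 1st (n = 4). Without control replicate 2 of the 2nd set 3 of the pericyte genes were called. Of 14 smooth muscle genes 12 were tested, 6 were lower and 2 higher, with a median of -0.67. Smtn, which encodes smoothelin of contractile smooth muscle, had a value of -1.06 (SE 0.17, adjusted p = 0.0018). The higher genes were Myl6 (0.68, adjusted p = 0.00786) and Tpm1 (0.28, adjusted p = 0.0316), which encode a myosin light chain and a tropomyosin that many cell types share. The call of Tpm1 was lost without control replicate 1, 2 or 4 of the 1st set, or 2 or 3 of the 2nd (adjusted p from 0.0558 to 0.0911). In this list 3 genes were called lower without control replicate 1 of the 1st set and 3 without control replicate 2 of the 2nd.

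Most regulators and ligands of these pathways were not called. Of the SRF and myocardin list 6 genes were tested and none was called (median 0.01), with Srf at 0.09 (SE 0.13, adjusted p = 0.646). Myocd, the gene of myocardin, was too low to test, with 12 counts or fewer per library. Of 7 PDGF genes 1 was lower, Pdgfra, a receptor of fibroblasts and oligodendrocyte precursors (-0.40, SE 0.12, adjusted p = 0.0263). That call was lost without control replicate 1 or 2 of the 1st set, or 2 or 3 of the 2nd (adjusted p from 0.0596 to 0.144). Pdgfb, the endothelial ligand of PDGFRB, stood at 23.3 ± 1.27 CPM in the controls of the 1st set (SD, n = 4) and at 25.1 ± 2.28 CPM in those of the 2nd (n = 3). Of 12 tested genes of the IGF system 3 were lower: Igfbp5 (-0.52, adjusted p = 0.0119), Igfbp4 (-0.88, adjusted p = 0.0144), both binding proteins, and the clearance receptor Igf2r (-0.32, adjusted p = 0.0364). All 3 calls were lost without control replicate 2 of the 2nd set (adjusted p from 0.0523 to 0.199), and that of Igf2r also without any 1 of the controls of the 1st set, exposed replicates 2 or 3 of the 1st set, or control replicate 1 of the 2nd (from 0.0522 to 0.0757). None of 5 tested RGS genes related to Rgs5 was called, and Rgs4, 45.7 kb from Rgs5, had a value of 0.39 (SE 0.18, adjusted p = 0.13).

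Several members lie beside relatives. Slc6a12, which encodes the betaine and GABA transporter BGT1 and lies 5.3 kb from Slc6a13, differed by -1.83 on the log2 scale (SE 0.31, adjusted p = 0.00221 by edgeR) between the controls, at 5.72 ± 1.31 CPM in the 1st set (SD, n = 4) and 1.62 ± 0.426 CPM in the 2nd (n = 3). Of 7 other transporters of that family 2 were lower, Slc6a12 and Slc6a20a (-1.33, SE 0.18, adjusted p = 0.000638), the latter a proline transporter. Dcn and Lum lie 47.3 kb apart on chromosome 10, with Kera and Epyc beyond Lum. Kera had no count in any library and Epyc at most 2. Omd lies 15.5 kb and Aspn 40.5 kb from Ogn on chromosome 13, both on the same side of it. Omd stood at 2.25 ± 0.55 and 1.80 ± 0.70 CPM and Aspn at 1.51 ± 0.443 and 0.912 ± 0.169 CPM in the controls of the 1st and 2nd set, and neither was called. Of 8 tested relatives of Dcn, Lum and Ogn 4 were lower, namely Bgn (-1.10, SE 0.17, adjusted p = 0.00168), Prelp, Fmod and Podn, with a median of -0.84 for the 8.

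**Figure D3:**
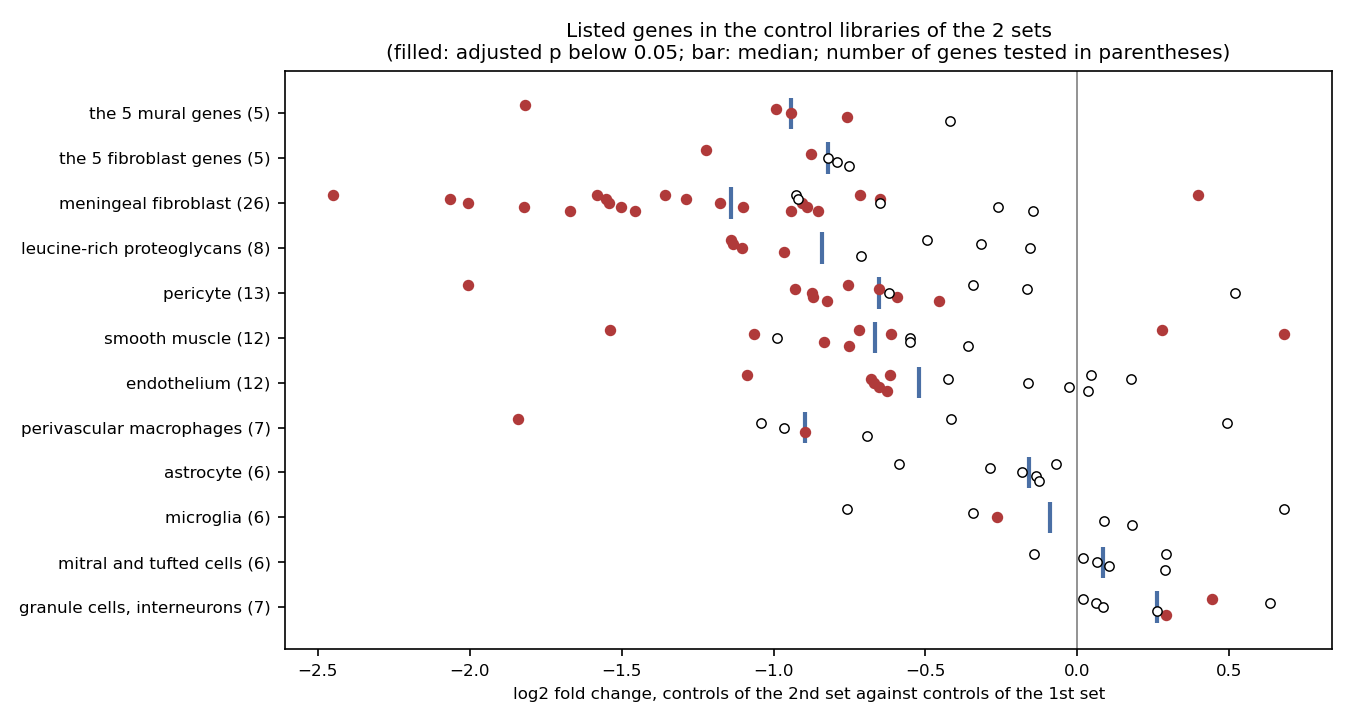
Log2 fold change of each tested gene (horizontal axis) between the controls of the 2nd and the 1st set, by list (rows, number of genes in parentheses); filled points have an adjusted p below 0.05 and the bars are medians. The meningeal list has its median at -1.14 and the pericyte list at -0.65, while mitral and tufted cells (0.08) and granule cells and interneurons (0.26) lie right of 0.

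Some markers of other cell types were called between the controls as well, where 8.74% of all genes were called lower and 10.5% higher. Counts of 1 or 2 genes in lists of 6 to 10 are not read as a result about a cell type. Of 12 endothelial genes 6 were lower (median -0.52), among them Cdh5, the cadherin of endothelial junctions (-1.09, SE 0.12, adjusted p = 0.00019 by edgeR). The endothelial count was 3 without control replicate 1 or 4 of the 1st set, or control replicate 2 or 3 of the 2nd. The summed level of the endothelial list was 333 to 383 CPM in the controls of the 1st set and 231 to 319 CPM in those of the 2nd. Of 7 perivascular macrophage genes 2 were lower (Cd163 and Mrc1). Of 7 genes of granule cells and interneurons 2 were higher (Synpr and Gad1) and all 7 were positive, with a summed level of 4101 to 4454 CPM in the controls of the 1st set and 4816 to 5152 CPM in those of the 2nd. The call of Gad1 was lost without control replicate 1, 2 or 3 of the 1st set, or 2 of the 2nd (adjusted p from 0.0569 to 0.132). None of the 6 astrocyte and none of the 6 mitral and tufted cell genes was called. All 6 astrocyte genes were negative, while 5 of the 6 mitral and tufted cell genes were positive. Of the remaining lists, 2 of 10 ensheathing glia genes (Mybpc1 and Prss56), 1 of 6 microglial genes (Csf1r) and 1 of 7 tested olfactory epithelium genes (Muc2) were lower. The log2 fold change was negative for all 10 ensheathing glia genes, all 7 epithelium genes and 3 of the 6 microglial genes. The call of Csf1r was lost without control replicate 1, 2 or 3 of the 1st set, or 2 of the 2nd (adjusted p from 0.0506 to 0.0765), and that of Prss56 without control replicate 3 of the 2nd (0.0517). Muc2 had a value of -3.77, or -2.69 without control replicate 1 of the 1st set and -4.39 without control replicate 2 of the 2nd. It lay near the floor, at 0.496 to 3.93 CPM in the controls of the 1st set and at most 4 counts in those of the 2nd. The epithelium list had a median of -2.20, with a summed level of 115 to 191 CPM in the controls of the 1st set and 80.3 to 147 CPM in those of the 2nd. The part of these shifts in the differences of the 10 genes was not tested.

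Igf2 is also known from the choroid plexus, whose 8 listed markers summed to 9.98 to 12.2 CPM in the controls of the 1st set and 4.63 to 7.43 CPM in those of the 2nd, with 1 of 5 tested genes lower (Kl). Of these, Ttr stood at 0.712 ± 0.608 CPM (SD, n = 4) and 0.318 ± 0.12 CPM (n = 3), and Folr1 held at most 6 counts in a library of these groups. Ckm, an enzyme of skeletal muscle, held at most 3 counts, while Acta1, the actin of skeletal muscle, stood at 3.96 ± 0.445 and 5.47 ± 2.47 CPM. Of 3 tested genes in the list of skeletal muscle, cartilage and bone 1 was called lower, Col2a1. It stood at 3.61 ± 0.353 and 1.40 ± 0.506 CPM in the controls of the 1st and 2nd set. Red blood cell genes, at 40.1 to 109 CPM and 97.1 to 119 CPM in these controls, were not called (0 of 5).

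At 10 mg/kg a few related genes were called. Of the 26 meningeal genes 2 were higher, against 0.521% of all genes called higher: Aldh1a2, the retinoic acid synthesising enzyme (log2 fold change 1.12, SE 0.21, adjusted p = 0.0278 by edgeR), and Serping1, the inhibitor of complement C1 (0.79, SE 0.15, adjusted p = 0.0304). The median of the list was 0.29 and 20 of 26 genes were positive, against a median of -0.01 and 47.2% positive over all genes. This lean was not particular to the meningeal list. Positive values were held by 12 of 13 pericyte, 10 of 12 smooth muscle and 7 of 7 perivascular macrophage genes, and by 0 of 7 granule cell and interneuron genes. Of the IGF system Igfbp7, a binding protein of vessels, was higher (0.86, SE 0.14, adjusted p = 0.0133), as was Cd163 of perivascular macrophages (1.72, SE 0.37, adjusted p = 0.0488). Each of these 4 calls was lost without control replicate 3 of the 2nd set (adjusted p from 0.0516 to 0.186). Those of Aldh1a2 and Serping1 were lost also when exposed replicate 2 or 3 of that set, or control replicate 2 of the 1st set, was left out (from 0.0517 to 0.0899), and that of Serping1 without control replicate 2 of the 2nd or exposed replicate 3 of the 1st (0.0559 and 0.0557). The call of Cd163 was lost in 10 of the 13 fits with 1 library left out. No pericyte, smooth muscle, PDGF, RGS, transporter or proteoglycan gene of the lists was called. Notch3, the receptor of mural cells, had a value of 0.61 (SE 0.22, adjusted p = 0.349) and Anpep one of 0.59 (SE 0.24, adjusted p = 0.403). Summed red blood cell genes were at 114, 208 and 302 CPM in exposed replicates 1 to 3 against 97.1 to 119 CPM in the controls, and perivascular macrophage genes at 19.6, 26.2 and 29.1 CPM against 8.9 to 15.4 CPM. Their part in these differences was not tested. At 3 mg/kg none of the listed genes was called, and those with the lowest unadjusted p among meningeal and pericyte genes were Mgp, matrix Gla protein (0.63, SE 0.22, adjusted p = 1), and Mcam (-0.38, SE 0.14, adjusted p = 1).

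Within groups, most pairs of the 10 genes had a positive correlation from library to library, though no pair passed a test. Deviations of log2 CPM from the group mean were compared over 13 libraries for 45 pairs. Pearson's r was positive for 41 pairs, with a median of 0.40 and a range from -0.17 (Myh11 and Igf2) to 0.93 (Rgs5 and Myh11). Within sets the median was 0.36 over 7 libraries and 0.51 over 6. The 10 mural pairs had a median of 0.45, the 10 fibroblast pairs one of 0.54 and the 25 mixed pairs one of 0.35. By permutation of libraries within groups, 0 pairs had an adjusted p below 0.05. Without the 2 libraries farthest from the median of the first gene of a pair, 36 of the 45 pairs kept their sign. All values share libraries and their depth, and pairs share genes. The same values were not computed for pairs of other genes, so whether joint variation is particular to these 10 was not tested.

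Rgs5 and Myh11 had r = 0.93 and Spearman's rho = 0.80 (two-sided permutation p = 0.0121 and 0.0275, adjusted p = 0.334 and 0.412 over 45 pairs). Without the 2 libraries farthest from the median of Rgs5, r was 0.86, and it was 0.72 in the 1st set and 0.95 in the 2nd. Slc6a13 and Ogn had r = 0.90 and rho = 0.83 (permutation p = 0.0239 and 0.0212, adjusted p = 0.334 and 0.412), with r = 0.76 without the 2 farthest libraries. Their r was 0.33 in the 1st set and 0.93 in the 2nd, where exposed replicate 3 was high in both genes and control replicate 3 low. Dcn and Lum, neighbours on chromosome 10, had r = 0.46 and rho = 0.31 (permutation p = 0.357 and 0.467, adjusted p = 0.633 and 0.758) and r = 0.27 without the 2 farthest libraries. Igf2 had its highest r, 0.40, with Tagln (rho 0.46, permutation p = 0.191 and 0.14, adjusted p = 0.598 and 0.532), and 0.12 without the 2 farthest libraries.

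**Figure D4:**
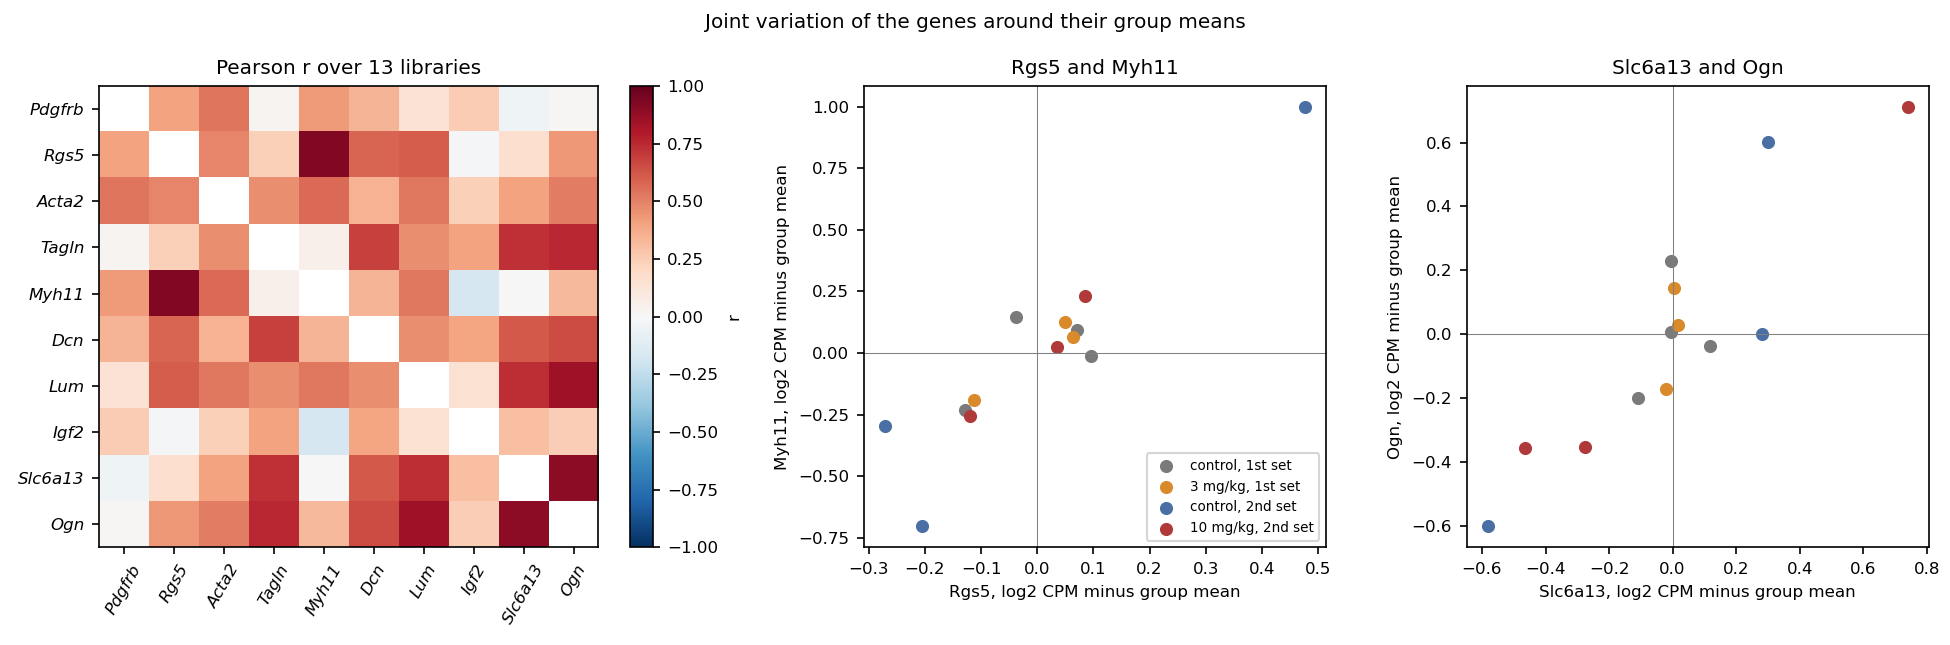
Left, Pearson r of each pair of genes over 13 libraries after group means were removed (colour scale from -1 to 1); middle and right, log2 CPM minus group mean for Rgs5 against Myh11 and Slc6a13 against Ogn, with points coloured by group. The 2nd set holds the points far from 0, such as control replicate 1 for Rgs5 and Myh11.

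Among 16038 other genes with a mean of at least 1 CPM, those whose deviations over the 13 libraries were most like the mean of the 5 mural genes were D16Ertd472e (r = 0.93), Slc1a3 (r = 0.92), Foxo1 (r = 0.91), Grem1 (r = 0.91) and Vamp4 (r = 0.90). For the 5 fibroblast genes they were Elovl5 (r = 0.97), Vtn (r = 0.96), Eaf1 (r = 0.95), Osgin1 (r = 0.95) and Gstm6 (r = 0.95). These are the highest of many correlations over the same libraries and are given as a description. Vtn, near the fibroblast pattern, is on the list of other pericyte genes, and Slc1a3, near the mural pattern, is on the astrocyte list.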

How the data were processed

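RNA of 13 olfactory bulb samples was sequenced from TruSeq Stranded Total RNA libraries, per the labels' protocols. The authors deposited a raw count and an FPKM value per gene and library in a single table. HISAT2 is named as a tool and mm10 as the build per the submitters' processing notes, while the sources used here do not give the counter, annotation release or strand setting. The deposited FPKM is the count divided by gene length and library total (largest relative deviation 5.88e-07 among genes with high counts). Gene coordinates are those of the file, and overlapping genes were read from GENCODE M21 (GRCm38).

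Counts were tested with edgeR 4.0.16 in R 4.3.3 (TMM, filterByExpr on the 4 groups, quasi-likelihood fit with robust shrinkage) in a single fit of 4 groups over 13 libraries with 9 residual degrees of freedom, adjusted by Benjamini-Hochberg over 17467 genes and called at 0.05. SE was derived as the absolute log2 fold change over the root of F. Correlations used log2 CPM with a prior count of 2, and p-values from 100000 permutations within groups. Alternatives used DESeq2 1.42.0 and limma 3.58.1 on log2(FPKM + 1). Counts were also simulated for 17467 genes, with 1 trended spread for all 4 groups and no group difference other than the planted changes. On these, the fit recovered 74% of genes changed by 1 on the log2 scale (94% at 2) for the high dose. It recovered 79% (94%) for the low dose and 71% (98%) for the controls. Unchanged genes called numbered 17, 6 and 8 in the same order. The simulation gave the 2nd set no wider spread, so these shares do not tell how often such changes of the members would be called. All replicate pairs differed by more than sampling noise. Chi-square per gene was 5.96 to 9.83 for pairs of the 1st set and 13.5 to 45.5 for those of the 2nd. The libraries of the 2nd set were also deeper. The single fit shares 1 estimate of spread per gene between the sets.

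The members and lists were chosen with earlier results of these data known. The text names all members and, from each list, called genes or those with the smallest p. Genes named for their position or as defining markers (Kcnj8, Pdgfb, Srf, Myocd, Rgs4, Omd, Aspn, Kera, Epyc, Ttr, Folr1, Ckm, Acta1) were chosen after their values were seen. The most similar genes are the 5 with the highest r for each role. The SRF list holds 9 symbols, 7 of them in the table.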

Additional observations from a re-analysis of the deposited data

How the results depend on the processing

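All 10 members kept a negative log2 fold change between the controls under all 18 alternatives, which reuse the same control libraries and are no separate support. The DESeq2 Wald test called 10 members there, limma 9 and edgeR without a filter 5, and leaving out 1 library gave 3 to 9 members and 1340 to 4073 genes. At both doses and for the difference between them, 0 members were called under all alternatives run. Over all genes, the low dose had 19 calls by DESeq2, 2 by limma on log2(FPKM + 1), 9 with each set fitted alone and 0 to 2 with 1 library left out. The high dose had 291 by DESeq2, 4 with each set fitted alone, 21 to 139 with 1 library left out, and 5 with the replicate block instead of 112. The difference had 17 by DESeq2, 2 without a filter, 0 by limma, 0 with the replicate block and 0 to 6 with 1 library left out. Between the controls, 54.6% of called genes were higher, 66.6% without a filter and 40.5% by limma. At the high dose 81.2% were higher, 69.1% by DESeq2, 57.6% with control replicate 2 of the 2nd set left out, and 100% of the 4 called with each set fitted alone. The causes were not tested.

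Signs of small values turned. Pdgfrb at the low dose was -0.0013 with DESeq2 size factors, -0.00101 by DESeq2, -0.00333 by limma, -0.0029 with each set fitted alone, -0.00421 with library sizes without mitochondrial, ribosomal and sex-chromosome genes and -0.0133 with the replicate block, and Acta2 was -0.00781 by limma. With 1 library left out, the log2 fold change at the low dose ran from -0.0401 to 0.0550 for Pdgfrb, -0.217 to 0.159 for Acta2 and -0.266 to 0.0261 for Dcn. At the high dose it ran from -0.0297 to 0.135 for Pdgfrb, -0.0774 to 0.349 for Rgs5, -0.0511 to 0.378 for Acta2, -0.0422 to 0.283 for Tagln, -0.30 to 0.76 for Myh11, -0.21 to 0.25 for Igf2 and -0.25 to 0.42 for Slc6a13. For the difference it ran from -0.0311 to 0.134 for Pdgfrb, -0.0654 to 0.364 for Acta2, -0.14 to 0.92 for Myh11 and -0.0885 to 0.585 for Slc6a13.

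The labels link control and exposed samples by no more than a shared replicate number. Same-numbered deviations correlated at 0.00424 to 0.0583 in the 1st set and -0.341 to 0.134 in the 2nd, and not every sample correlated best with its own number. In the 2nd set, control replicate 2 correlated at 0.455 with exposed replicate 3, the 2 deepest libraries, and at -0.377 with exposed replicate 1. Whether samples were paired cannot be read from these values. Counts of called genes in the 5 lists, and called list genes with 1 library left out, were recomputed as alternatives chosen after the data were seen. Low counts limit Lum and Tagln, with at most 65 and 103 counts in a library.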
